A study of Mus musculus with 2112 samples.

Results

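The single-cell wells described here are those sorted as multipotent progenitors (MPP) from mouse bone marrow whose quality label contains the word plasma. They number 53 of the 682 single-cell MPP wells and of the 2046 single-cell wells of the whole series, in which no long-term or short-term stem cell well carried that label. They were set against the 466 MPP wells with none of the labels plasma, fewGenes and pctTrans, called kept wells below. The other 163 MPP wells carried fewGenes or pctTrans without plasma. The wells were selected on the submitters' quality label, a class of measured expression values in the same libraries whose rule is not given in the sources used here. Every difference between plasma-labelled and kept wells is therefore a description and carries no test.

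Each well held 1 sorted cell, whose polyadenylated RNA was copied and sequenced along the whole transcript by SMART-seq2. The cells came from 4 mice labelled old and 5 labelled young, with no age in months, strain or genotype in the labels, and had been kept in HSPC medium without stimulation or for 2 h with LPS (100 ng/ml), which acts through Tlr4, together with the Tlr2 agonist Pam3CSK4 (1 µg/ml). Unstimulated MPP came from all 4 old and from 3 young mice, and stimulated MPP from all 9. Old mice 2 and 3 and young mice 1, 2 and 3 were on plates 1 and 2, and old mice 2-2 and 2-3 and young mice 2-1 and 2-3 were on plate 4. Wells of 1 animal and treatment share their source, so their counts were added, and each such sum counts as 1 sample.

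Plasma cells are the antibody-secreting end stage of the B lineage and settle for long periods in bone marrow. Prdm1, Irf4 and Xbp1 drive their program, which widens the endoplasmic reticulum (ER) and its machinery for taking in, folding, glycosylating and exporting immunoglobulin, and misfolded chains are returned to the cytosol and degraded. MPP are early blood progenitors that divide, carry Kit and Sca-1 (encoded by Ly6a) at the surface, and express genes such as Cd34, Flt3 and Meis1.

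Of the 53 wells, 26 also carried a low-quality label. The label pctTrans, whose meaning is not given in the labels, was on 25 of them and fewGenes on 5, with 4 wells carrying both. In the plasma wells pctTrans mostly came without fewGenes, in 21 of 53 wells, against 3 of the 629 other MPP wells. It was concentrated in 1 sum: 20 of the 22 unstimulated plasma wells of old mouse 3 carried it, and 5 of the 31 others. The label cycling was on 4 of 53 plasma wells and on 279 of 466 kept wells, and 23 plasma wells carried no other label.

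Plasma wells were shallower than kept wells. They held a median of 173254 counts (lowest 1048, highest 379747) and 3227 detected genes, against 416371 counts (6721 to 951806) and 4399 genes in kept wells. The ribosomal RNA precursor Rn45s took a median of 29.7% of their counts, against 13.7% in kept wells. After thinning to 50000 counts without Rn45s, 48 plasma wells still showed fewer genes than 446 kept wells, with medians of 2916.5 and 3635. The part of depth in the values below was not tested, except where values at matched counts are given.

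The wells are described by 6 markers of plasma cells. These may have set the label, so their presence is no check of it. Igj encodes the joining chain of polymeric antibody, Mzb1 an ER cofactor of immunoglobulin assembly, Sdc1 the surface proteoglycan CD138, Derl3 a component of ER-associated degradation, Pou2af1 a coactivator of octamer-binding factors and Tnfrsf17 the survival receptor BCMA. All 6 were detected, with at least 1 count, in 40 of the 53 wells, 5 in 10 wells and 4 in 1 well. The last 2 wells showed 3 and 2 markers and held only 1048 and 1133 counts. No kept well showed more than 2 markers apart from 1 unstimulated well of old mouse 3 with 4 markers, whose summed marker level was 193 CPM (CPM, the count of a gene scaled to the total of its well), against a median of 24438 CPM in plasma wells.

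Igj was the most abundant of these transcripts in CPM. Its level in plasma wells ran from 0 to 158984 CPM with a median of 21962, while the median of kept wells was 0 and the highest 719. It was detected in 52 of 53 plasma wells and in 19 of 466 kept wells, and Igj and Mzb1 were detected together in 50 plasma wells and in 0 kept wells, which allows a share of up to 0.644% of kept wells. The 1 plasma well without an Igj count, from unstimulated old mouse 3, held 160912 counts and the other 5 markers. Igj alone did not separate the label: 4 other MPP wells with fewGenes and pctTrans held it at 2183 to 15371 CPM of 130 to 15179 counts, with 1 marker each.

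**Figure D1:**
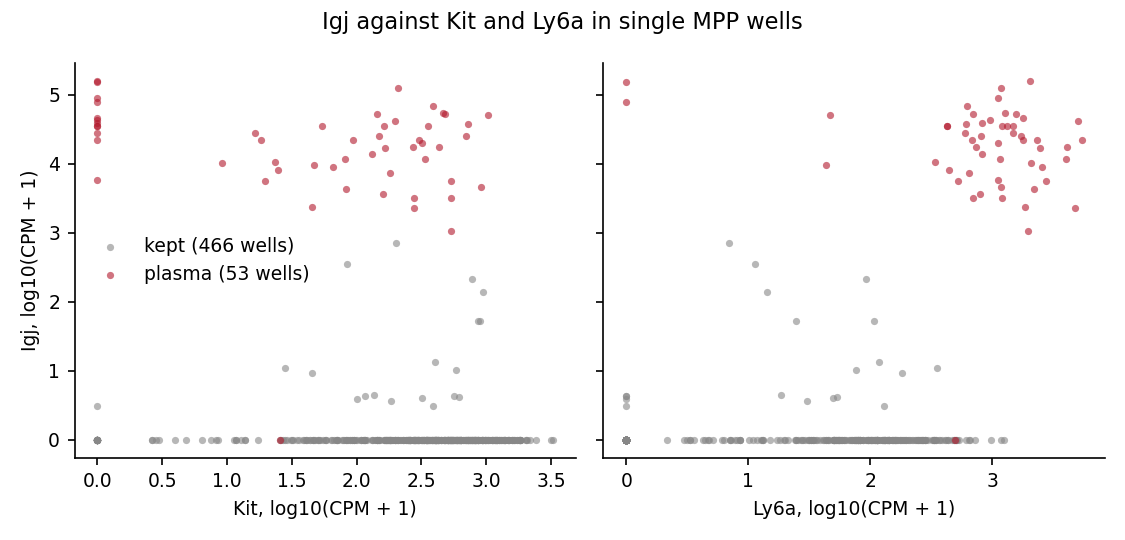
Each point is 1 single-cell MPP well, with Igj on the vertical axis and Kit (left) or Ly6a (right) on the horizontal axis, all as log10(CPM + 1), for 53 plasma-labelled and 466 kept wells. Plasma wells lie high on the Igj axis, 41 of them with a Kit count and 51 with a Ly6a count, while most kept wells lie at 0 on that axis.

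Transcript abundance per length, as TPM, gave the same leading gene. Mean Igj TPM in plasma wells was 32862, behind Rn45s only, and 2.65 in kept wells. The next genes in plasma wells were B2m, the light chain of class I molecules, at 23276 TPM, and Ly6c2, a surface antigen, at 11376 TPM. Xbp1 stood at 5678 TPM and Cd74, the class II invariant chain, at 5036, against 128.5 and 164.96 in kept wells. Genes of the immunoglobulin heavy and light chains were not analysed here, so the class and clonality of these cells cannot be given.

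The markers were present in wells with and without pctTrans. Median Igj was 25060 CPM in the 25 wells with pctTrans and 20299 CPM in the 27 with neither low-quality label. Median Mzb1 was 1014 and 505 CPM and median Hspa5, the ER chaperone BiP, 2890 and 2849 CPM in the same wells. Depth did differ, with medians of 134800 and 215898 counts.

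The first comparison asks in which animals the label fell. Plasma wells made up 13.7% ± 9.0 (SD, n = 4) of the single-cell MPP wells of old mice and 0.968% ± 1.44 (SD, n = 5) of those of young mice. By animal, the shares were 2.42% in old mouse 2, 11.3% in old mouse 2-2, 17.7% in old mouse 2-3 and 23.4% in old mouse 3, and 3.23% in young mouse 2-1, 1.61% in young mouse 2-3 and 0 in young mice 1, 2 and 3. In all, 50 of the 53 wells came from old mice. Old mouse 2, the lowest of the old mice, lay below young mouse 2-1, so the groups overlapped. A count of 0 among the 93 MPP wells of young mouse 1 allows a share of up to 3.89% (95% exact binomial limit, counting error only).

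The difference of 12.7 percentage points gave p = 0.0159 in a two-sided exact permutation test over animals, and 0.0318 after Benjamini-Hochberg adjustment over the 2 tests of shares. It was 12.9 points within plates 1 and 2 (exact p = 0.1) and 12.1 points within plate 4 (exact p = 0.333), each the smallest p those animals allow. Without young mouse 1, 2 or 3 it was 12.5 points and without young mouse 2-3 12.9 points, each with an exact p of 0.0571. In unstimulated wells alone it was 10.2 points (exact p = 0.543) and in stimulated wells alone 14.8 points (exact p = 0.00794). Shares of a sort depend on the gate that was set, which is not given in the sources used here.

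**Figure D2:**
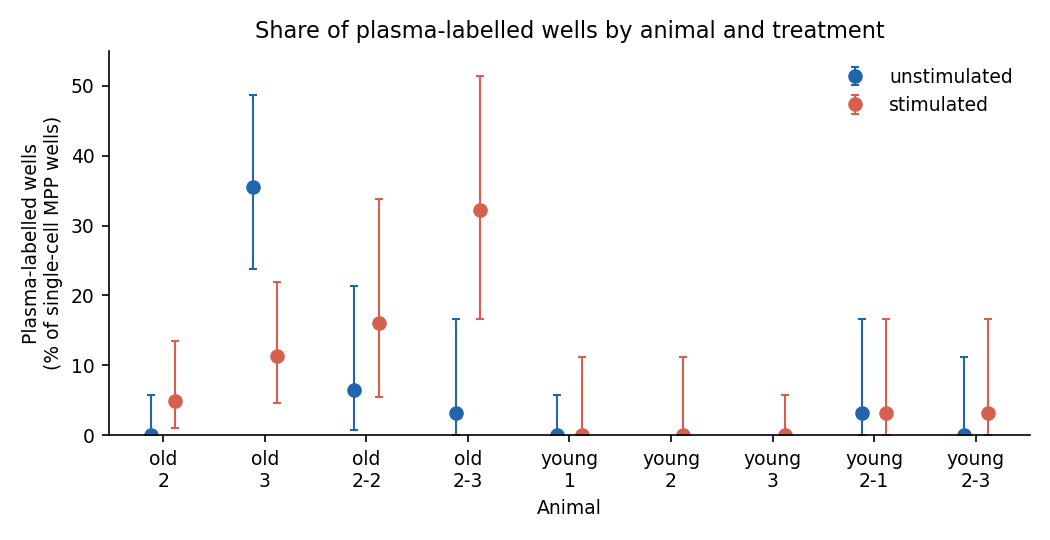
Share of single-cell MPP wells labelled plasma, in percent, for each animal (old left, young right) without and with stimulation; points are shares and bars their 95% exact binomial intervals, which cover counting error only. Unstimulated old mouse 3, at 35.5%, and stimulated old mouse 2-3, at 32.3%, are the highest, and no young point is above 3.23%.

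No difference of share by stimulation passed the test. Stimulated minus unstimulated wells of the same animal gave 3.23 percentage points over 7 animals, with 4 of 7 higher (two-sided exact sign-flip permutation p = 0.562, adjusted p = 0.562). The sign was negative within plates 1 and 2 (-6.45 points, exact p = 1) and positive within plate 4 (10.5 points, exact p = 0.25). Without wells that carry fewGenes or pctTrans it was 8.16 points, with 5 of 7 animals higher (exact p = 0.0625). In old mouse 3 the share was 35.5% without and 11.3% with stimulation, while in old mouse 2-3 it was 3.23% and 32.3%.

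The second comparison sets plasma wells against kept wells across all genes. It used the 6 sums with at least 2 plasma wells, which hold 49 of the 53 wells, each matched to the kept sum of the same animal and treatment, and all 6 came from old mice. A gene was called when its mean difference was at least 1 on the log2(CPM + 1) scale with the same sign in all 6 sums, over 10443 genes that reached a mean of 5 CPM in either class. By that rule 323 genes (3.09%) were higher and 2556 (24.5%) lower in plasma wells, with a median difference of -1.40. With kept sums cut to the same numbers of wells and counts, Rn45s left out, 396 of 10683 genes were higher, 917 lower, and the median was -0.74. Without old mouse 2-2, 551 genes were higher and 3164 lower over the other 4 sums. Just inside the limit lay Glrx at 1.00, and just outside Spint2 at 0.997.

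The 10 genes with the largest positive difference were led by 4 of the markers: Igj at 13.48 ± 1.73 (SD, n = 6 sums), Mzb1 at 9.94 ± 1.25, Derl3 at 9.25 ± 1.41 and Pou2af1 at 8.95 ± 1.75. Next came Cd79a, the signalling subunit of the B cell receptor, at 8.75 ± 1.08, which had no count in any of the 6 kept sums and 145 to 1438 CPM in the plasma sums. Differences against kept sums at or near 0 depend on the added 1 CPM. Ly6c2 (8.48 ± 3.71), the adhesion molecule Epcam (8.45 ± 0.83), the B lineage surface protein Ly6d (8.26 ± 2.73), the surface receptor Slamf7 (8.18 ± 0.61) and the immunoglobulin-binding protein Fcrla (7.92 ± 0.66) completed them. Each was detected in at least 43 of the 53 plasma wells and in at most 22 of the 466 kept wells.

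**Figure D3:**
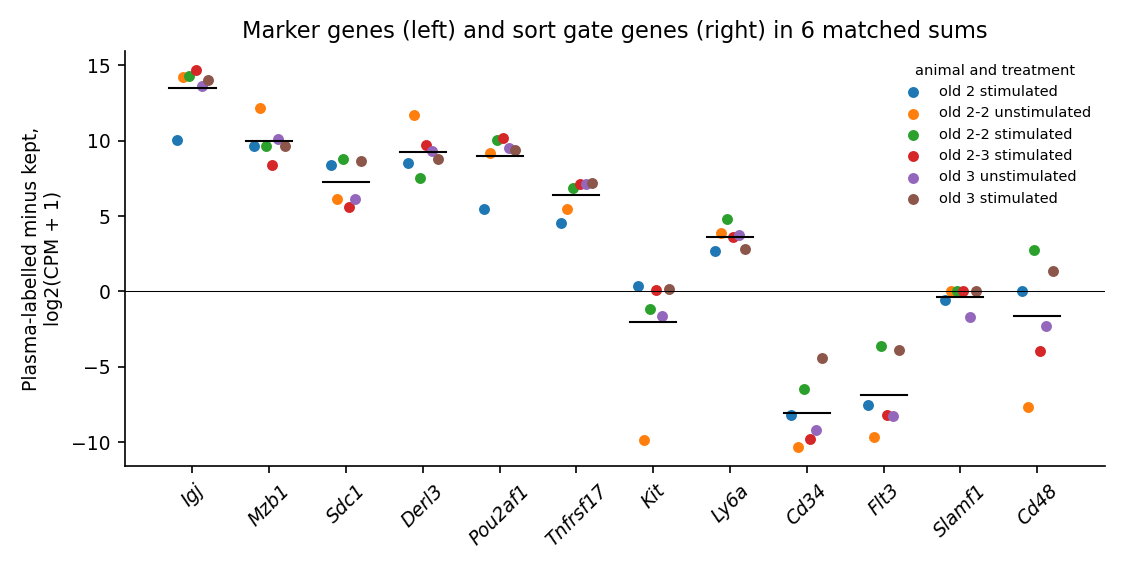
Plasma-labelled minus kept level on the log2(CPM + 1) scale for marker genes (left) and genes of surface proteins used to sort progenitors (right); each point is 1 of 6 sums of an animal and treatment and the black line is their mean. All points of the 6 markers lie above 0, Ly6a lies above 0 in all 6 sums, Cd34 and Flt3 lie below 0 in all 6, and Kit and Cd48 spread to both sides.

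Transcription factors and regulators of plasma cells were higher as a list, with 10 of 13 tested members called higher, none lower and a median of 3.81, against 3.09% called higher among all genes. Xbp1, the transcription factor of the unfolded protein response, was detected in all 53 wells with a median of 4080 CPM, against 92.6 CPM in kept wells, a difference of 4.83 ± 0.52 (SD, n = 6). Prdm1, the repressor BLIMP-1, differed by 4.96 ± 1.75. Irf4 differed by 3.81 ± 4.10, the spread coming with kept sums, which held 0 and 0.0877 CPM of Irf4 in the 2 unstimulated sums and 47 to 132.6 CPM in the 4 stimulated ones. The members with the largest differences were Fam46c, a poly(A) polymerase, at 7.07 ± 1.72, Ikzf3, the factor Aiolos, at 6.98 ± 1.40, Bhlha15, the secretory factor MIST1, at 5.87 ± 2.66, and Creb3l2, an ER-bound factor, at 5.33 ± 1.83.

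ER chaperones and folding enzymes were the longest list of called genes in the secretory pathway. Of 33 genes 19 were called higher (3.09% among all genes) and 1 lower (24.5%), with a median of 1.61 (-1.40). Summed over the list, their level was 21021 CPM in the median plasma well and 4712 CPM in the median kept well, and the lowest of the 6 plasma sums (13965 CPM) was above the highest kept sum (5777 CPM). Hspa5 ran from 2534 to 10475 CPM in plasma sums and from 351 to 1152 CPM in kept sums, with no overlap, and differed by 2.35 ± 1.45. The largest differences were of the protein disulfide isomerase Txndc5 (6.10 ± 0.87), the ER stress protein Creld2 (4.6 ± 1.07), the chaperone cofactor Sdf2l1 (4.27 ± 1.48) and the disulfide isomerase Pdia4 (4.01 ± 0.98). Creld2 and Pdia4 were detected in all 53 plasma wells. Calr and Canx, the lectin chaperones calreticulin and calnexin, were not called, at 0.82 ± 0.90 and -0.71 ± 0.52.

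A DNA motif is shown mainly for the list of ER chaperones and folding enzymes. That list was set by function, so its share of sites is a description and no test of the calls. The ER stress response element, bound by ATF6 with NF-Y, was searched on both strands, as CCAAT and CCACG with any 9 bases between them, in RefSeq promoters of build GRCm38.p6, from 250 bases before to 50 after each gene's start. It was found in 8 of the 29 chaperone and folding genes with a RefSeq entry (27.6%), against 37 of 27025 genes (0.137%). Among the other lists it was found in 1 of 5 matched markers, 1 of 23 genes of ER-associated degradation, 1 of 21 of N-glycosylation, and in 0 of 20 translocon, 31 ER to Golgi, 21 ribosomal, 30 progenitor and 31 cell cycle genes. The sites below are written 5′ to 3′ on the strand of the motif, with its 2 fixed parts in capitals.
Derl3: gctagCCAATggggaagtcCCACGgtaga
Hspa5: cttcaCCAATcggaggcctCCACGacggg
Hsp90b1: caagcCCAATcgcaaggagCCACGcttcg
Creld2: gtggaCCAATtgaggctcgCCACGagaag
Dnajc3: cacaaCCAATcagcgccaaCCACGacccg
Pdia6: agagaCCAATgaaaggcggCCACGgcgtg
Calr: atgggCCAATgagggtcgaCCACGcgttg
Ero1lb: ggcggCCAATgaggcgggaCCACGaggcc
Syvn1: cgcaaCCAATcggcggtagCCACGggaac
Canx: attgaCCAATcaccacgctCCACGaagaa

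The site of Derl3 lies at chr10:75893237-75893265, its motif beginning 156 bases before the gene's start on the opposite strand. That of Hspa5 lies at chr2:34772020-34772048, beginning 65 bases before the start on the gene's own strand. Hsp90b1, the chaperone GRP94, holds a second site, and the one shown lies at chr10:86705633-86705661. The site of Creld2, at chr15:88819515-88819543, is shared with the promoter of the neighbouring glycosyltransferase gene Alg12, which was not called (1.17 ± 3.54). Among the genes shown, Derl3, Hspa5, Hsp90b1 (3.43 ± 1.07), Creld2, Dnajc3 (2.5 ± 0.75), Pdia6 (1.61 ± 0.64), Ero1lb (3.74 ± 1.92) and Syvn1 (2.32 ± 0.75) were called higher in plasma wells, while Calr and Canx were not called. A match is a description of the sequence and not a bound site. A second motif of the unfolded protein response, TGACGTGG, was found in 5 of 31 ER to Golgi genes and 2 of 29 chaperone genes, against 0.714% of all genes.

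ER-associated degradation and stress signalling had 12 of 24 tested members called higher, none lower and a median of 1.36. Of all genes 3.09% were higher and 24.5% lower, with a median of -1.40. Sel1l, the adaptor of the retrotranslocation ligase, ran from 223 to 2710 CPM in plasma sums and from 57.7 to 86.4 CPM in kept sums, without overlap, and differed by 4.26 ± 1.46. Edem1, a mannosidase-like lectin, differed by 3.96 ± 2.09 and Herpud1, a membrane component of the pathway, by 3.30 ± 1.11. The stress kinase gene Eif2ak3 (PERK), at 3.65 ± 2.37, rested on few wells, with counts in 16 of 53 plasma wells. Other stress signalling genes of the list were split. Chac1 lay at 3.25 and Asns at 1.98. Ddit3 (0.94), Atf4 (0.77), Ppp1r15a (0.61), Trib3 (-0.19), Atf3 (-0.64) and Ern1 (-1.49) were not called.

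The other lists of the secretory pathway had smaller medians. All lay above the median of -1.40 of all genes, of which 3.09% were higher and 24.5% lower. Of 27 translocon and signal peptide genes 10 were called higher and 1 lower (median 0.86). Sec11c and Spcs1, subunits of signal peptidase, were each detected in 52 of 53 wells and differed by 3.08 ± 0.44 and 2.42 ± 0.62, and the translocation protein Tram2 by 3.36 ± 1.62. The minor channel subunit gene Sec61a2 was lower, at -2.97 ± 1.07. Of 25 N-glycosylation genes 7 were higher and 1 lower (median 0.60): Gmppb, which makes GDP-mannose, at 3.45 ± 1.25 and the oligosaccharyltransferase subunits Krtcap2 (1.77 ± 0.79) and Dad1 (1.41 ± 0.65) were higher, and Tusc3, a subunit of the same enzyme, was lower at -4.29 ± 1.15. Of 35 ER to Golgi genes 9 were higher and none lower (median 0.85), with the COPII coat genes Sec24d (3.55 ± 1.36) and Sec24a (1.97 ± 1.09) and the cargo receptors Tmed10 (1.89 ± 0.47) and Lman1 (1.80 ± 0.97).

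**Figure D4:**
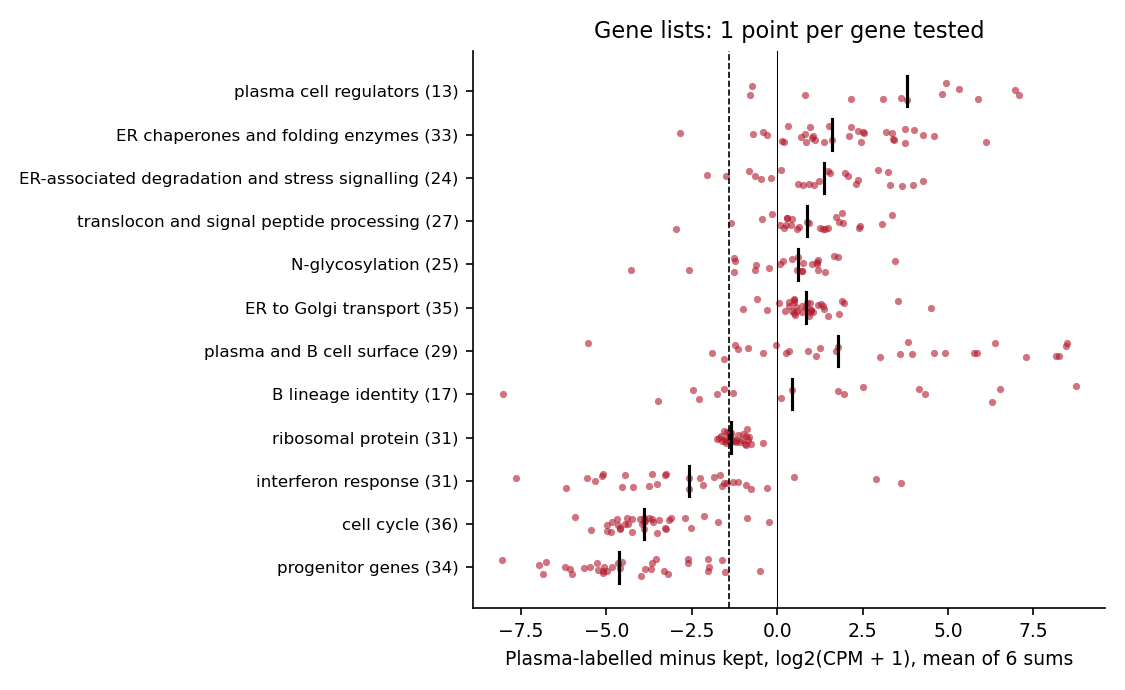
Each point is 1 gene tested, placed by its mean plasma-labelled minus kept difference over 6 sums on the log2(CPM + 1) scale, in 12 lists with the number of genes in brackets. Black ticks are list medians, the dashed line is the median of all 10443 genes (-1.40), and the solid line is 0: plasma cell regulators have the highest list median shown (3.81) and progenitor genes the lowest (-4.63).

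Amino acid supply and survival genes were mostly not called, beside 3.09% higher and 24.5% lower among all genes. Slc3a2, the heavy chain of the CD98 amino acid transporter, was higher (3.81 ± 1.38, detected in 52 of 53 wells) and Slc7a11, the cystine transporter, lower (-2.71 ± 0.78), with the other 16 of 18 tested genes of that list not called. Its usual partner Slc7a5 differed by 0.71 ± 2.22. Of 12 survival genes 2 were called higher: Tnfrsf17, at 6.39 ± 1.12, and Tnfrsf13b, the receptor TACI, at 5.75 ± 1.60. Tnfrsf17 is also a marker that may have set the label, so its call is no check of it. Mcl1 (0.90 ± 0.93) and Bcl2 (0.20 ± 3.94) were not called.

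Genes of surface proteins of plasma and B cells had 10 of 29 tested members higher, 3 lower and a median of 1.78. Among all genes 3.09% were higher and 24.5% lower, with a median of -1.40, so the count of lower members does not set the list apart. Against kept sums matched in wells and counts 1 member was lower, beside 917 of 10683 genes. The higher members include Sdc1 and Tnfrsf17, markers that may have set the label, so their calls are no check of it. Sdc1 was detected in 51 of 53 plasma wells and in 55 of 466 kept wells, with medians of 817 and 0 CPM. The lower members included Cd27 (-5.54 ± 1.49) and Cd93 (-1.90 ± 2.84). Spn, which encodes CD43 and is not on the list, was also lower (-1.96 ± 1.30). Cd38 and Cxcr4 were not called, at 1.15 ± 1.86 and -1.25 ± 2.15.

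Genes of 6 surface proteins that are used to sort stem cells and progenitors gave a mixed picture. Ly6a was detected in 51 of 53 plasma wells, with a median of 1162 CPM, and in 247 of 466 kept wells, with a median of 6.02 CPM. It differed by 3.59 ± 0.80 and was higher in plasma wells in all 6 sums. Kit was detected in 41 of 53 plasma wells with a median of 130.8 CPM and in 437 of 466 kept wells with a median of 380 CPM. Kit was listed at 0 in the plasma sum of unstimulated old mouse 2-2 and at 115.1 to 406 CPM in the other 5 sums, and was not called (-2.01 ± 3.93). All 41 wells with Kit also held Ly6a and Sdc1.

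The other sort genes were scarce. Cd34 was detected in 4 plasma wells and 445 kept wells, and differed by -8.05 ± 2.24. Flt3 was detected in 5 and 352 wells and differed by -6.85 ± 2.5. Cd48 was found in 16 plasma wells and was not called (-1.63 ± 3.83), and Slamf1 was found in 0 plasma wells and 5 kept wells. After thinning to 50000 counts Kit was seen in 38 and Ly6a in 47 of 48 plasma wells, and in 404 and 214 of 446 kept wells.

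B lineage identity genes were split. Of 17 tested, 5 were higher (3.09% among all genes) and 2 lower (24.5%) in plasma wells, with a median of 0.43 (-1.40). Besides Cd79a, the higher ones included Ms4a1, which encodes CD20 (6.52 ± 1.39, detected in 22 plasma wells and 0 kept wells), the adaptor Blnk (6.30 ± 1.17), Cd79b (4.16 ± 1.42) and Cd74 (4.33 ± 2.26). Dntt, the terminal transferase of early lymphoid cells, was lower at -8.03 ± 1.35, in 1 plasma well and 181 kept wells. Pax5, the factor of B cell identity, had no count in any plasma or kept well, and Il7r was found in 0 plasma wells.

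Progenitor genes were lower in plasma wells. Of 34 tested, 25 were called lower and none higher, with a median of -4.63, against 24.5% called lower and a median of -1.40 among all genes. Against kept sums matched in wells and counts 15 of 34 were lower, beside 917 of 10683 genes, with a median of -3.72 beside -0.74 for all genes. The median plasma well held 3 of 36 such genes and the median kept well 19. Meis1, a stem cell transcription factor, was found in 1 of 53 plasma wells and 365 kept wells (-6.77 ± 0.57), and Gata2 in 0 and 181 wells (-5.10 ± 1.34). Gene by gene the largest negative differences over the whole table were of the carbonic anhydrase Car2 (-8.78 ± 1.17), the adhesion receptor Gpr56 (-8.48 ± 2.05), Cd34, Dntt, the adhesion receptor Eltd1 (-7.97 ± 2.84), the interferon-induced gene Rtp4 (-7.66 ± 1.29), the mucin Muc13 (-7.40 ± 1.56), the GTPase Tgtp2 (-7.20 ± 3.30), the endothelial and stem cell receptor Eng (-7.15 ± 1.51) and Ifitm1 (-6.96 ± 0.94).

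Cell cycle genes were lower, with 18 of 36 called lower, none higher and a median of -3.91. Among all genes 24.5% were lower, with a median of -1.40. Top2a, a replication and mitosis enzyme, was found in 5 plasma wells (-5.92 ± 3.89), the spindle motor Kif11 in 2 (-5.45 ± 2.38), the replication helicase subunit Mcm5 in 10 (-4.97 ± 3.30) and the nucleotide reductase subunit Rrm1 in 7 (-4.97 ± 3.52). Mki67 differed by -4.84 ± 2.19, and by 0.36 against kept wells without the cycling label, which 59.9% of kept wells carried. Stimulated old mouse 2-2, with 2 of the 4 cycling plasma wells, held the highest Top2a of the plasma sums, at 223 CPM against 302 CPM in its kept sum.

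Of 31 ribosomal protein genes 23 were called lower and none higher, against 24.5% lower among all genes. Their median of -1.35 is close to the -1.40 of all genes. Rpl3 (-1.77 ± 0.33), Rps9 and Rps19 were among them. Against kept sums matched in wells and counts 16 of 31 were lower, beside 917 of 10683 genes. Of 31 interferon response genes 17 were lower and 2 higher (median -2.58). Against the matched kept sums 2 of 31 were lower, and beside 917 of 10683 genes that count does not set the list apart. The median was then -1.70, beside -0.74 for all genes. Of 25 genes of the Toll-like receptor pathway 1 was higher, the adaptor Ticam1 (2.66 ± 1.23), and 2 lower, the adaptor Myd88 (-2.47 ± 2.02) and the receptor-like Cd180 (-2.15 ± 1.65). Beside 3.09% higher and 24.5% lower among all genes, these counts do not set the list apart. Counts of Tlr4 were found in 7 plasma wells and of Tlr2 in 5. In kept wells Tlr4 was found in 24 of 222 unstimulated and 13 of 244 stimulated wells, and Tlr2 in 27 and 83.

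Markers of other cell types were at or near 0. In the median plasma well the summed level was 0 CPM for T and NK cell, macrophage, neutrophil, erythroid, megakaryocyte, and stroma and endothelium genes. In the 6 plasma sums 8 of 17, 9 of 13, 10 of 12, 9 of 13, 5 of 10 and 11 of 14 genes of these lists were at 0, and the summed levels reached at most 88.7, 98.8, 112.1, 7.94, 48.04 and 35.5 CPM. Nkg7, of the T and NK cell list, was lower than in kept wells (-5.60 ± 2.79). A list for plasmacytoid dendritic cells, which share secretory and B lineage genes with plasma cells, summed to 606 to 2035 CPM in plasma sums and 332 to 892 CPM in kept sums, with none of its 6 tested genes called.

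Of the 53 wells 2 differed from the others in progenitor genes, and were singled out after their values were seen, by 1000 CPM or more of Mpo, the myeloid granule enzyme. A stimulated well of old mouse 2 held 6622 CPM and a stimulated well of old mouse 3 held 13382 CPM, while the other 51 wells had no Mpo count and the kept median was 248 CPM. These wells showed 5712 and 7270 genes, 17 and 20 of the 36 progenitor genes, all 6 plasma markers, and Igj at 34995 and 9561 CPM. No doublet caller was run, and whether these wells held more than 1 cell was not tested. They also held 99.3% of the Tnf counts, 100% of the Ccl4 counts and 93.9% of the Cd14 counts of all plasma wells. Without them 297 genes were higher and 2959 lower than in kept wells.

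Pools of 100 cells from the same sort gave another view. Of 22 MPP pools 7 carried the plasma label, with Igj at 1896 to 11807 CPM, and of the 15 without it 4 had an Igj count, up to 1348 CPM. Among the 22 long-term and 22 short-term stem cell pools 1 each held Igj, at 753 and 4.55 CPM. The labelled pools came from stimulated old mice 2, 2-2, 2-3 and 3, unstimulated old mouse 3 and stimulated young mice 2-1 and 3. The pool of young mouse 3 held 8612 CPM of Igj although none of its 62 single wells carried the label. No pool on plate 2 carried the label or an Igj count, including both of old mouse 3, which held 1137 and 371323 counts. Some pools of plate 2 held as few as 239 and 348 counts. Whether the wells of plate 2 held 100 cells could not be settled, so the missing Igj there, and the 4 of 15 above, cannot be read as values of 100 cells.

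The third comparison asks how plasma wells answered LPS and Pam3CSK4. The treatments come from other labels than plasma, and whether the plasma label drew on genes that respond is not known. The test set 6 stimulated against 4 unstimulated sums with edgeR's quasi-likelihood test, the plate set as a covariate, over 4721 genes. Sums of the same animal entered as separate samples, except where the animal was a block. The unstimulated side was thin: 22 of its 26 wells came from old mouse 3, 20 of them with pctTrans, and the other 3 sums held 1 or 2 wells. At an adjusted p of 0.05, 37 genes (0.784%) rose and 0 (0%) fell, with 297 genes at an unadjusted p under 0.05 in either direction. DESeq2 called 181 higher and 5 lower. With the animal as a block 67 rose and 2 fell, with all 37 genes among the 69. Without old mouse 2-3 or young mouse 2-1, 23 rose, and without old mouse 3, 12. In kept wells, with more animals, wells and counts, 1480 of 11292 genes (13.1%) rose and 926 (8.2%) fell. In kept sums matched in wells and counts 36 of 5961 (0.604%) rose and 2 (0.0336%) fell.

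Il10, an anti-inflammatory cytokine of regulatory lymphocytes and myeloid cells, was detected in 25 of 27 stimulated and 3 of 26 unstimulated plasma wells. Its level was 452 CPM in stimulated old mouse 2, 1248 in old 2-2, 1089 in old 2-3, 469 in old 3, 171 in young 2-1 and 1464 in young 2-3. The unstimulated sums held 10.1 CPM in old mouse 3 and 0 in old 2-2, old 2-3 and young 2-1, so the groups did not overlap. Il10 rose by a log2 fold change of 7.69 ± 1.07 (SE, adjusted p = 0.00022). In kept wells it was found in 0 of 222 unstimulated and 6 of 244 stimulated wells. After thinning, 24 of 26 stimulated and 2 of 22 unstimulated plasma wells held it.

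**Figure D5:**
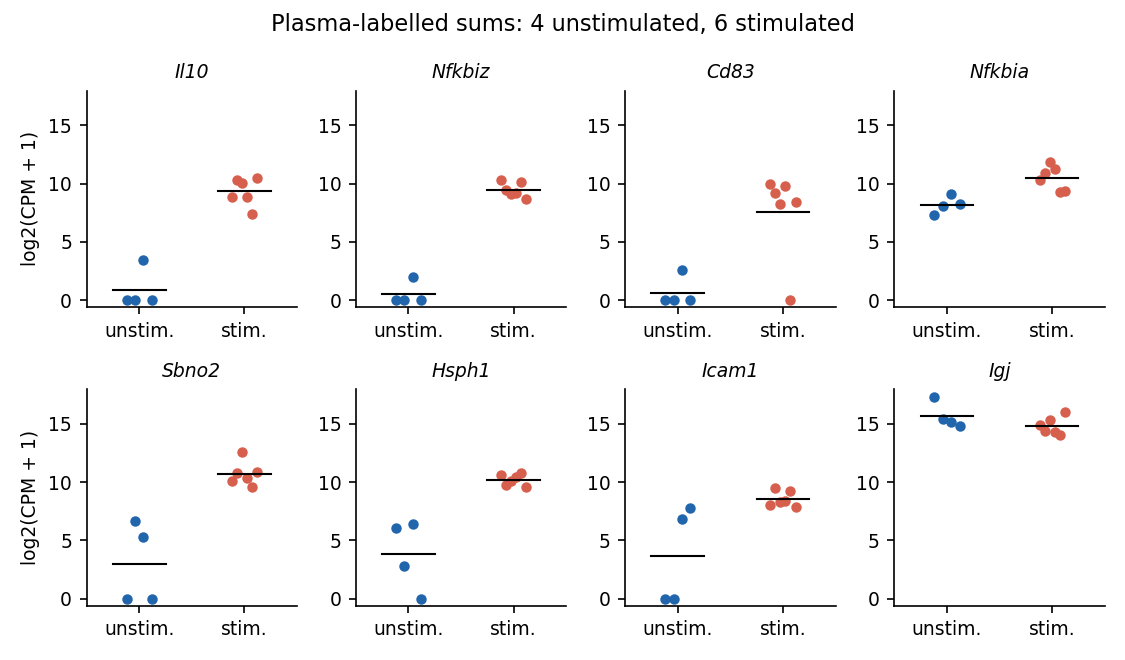
Levels of 8 genes in the 4 unstimulated and 6 stimulated plasma-labelled sums, as log2(CPM + 1) after TMM scaling; each point is 1 sum and black lines are means. Il10, Nfkbiz, Sbno2, Hsph1 and Nfkbia do not overlap between treatments, Cd83 has 1 stimulated sum at 0, Icam1 did not pass the test, and Igj, a marker of the label, overlaps.

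Targets of NF-κB rose in part. Of 23 tested genes of that list 5 rose and 0 fell, beside 0.784% of all genes, with a median log2 fold change of 2.30 beside 0.08 for all genes. In kept wells 35 of 38 rose, beside 13.1% of all genes, and in kept sums matched in wells and counts 14 of 30, beside 0.604%. Nfkbiz, the nuclear inhibitor IκBζ, went from 0 to 2.88 CPM in unstimulated sums to 418 to 1281 CPM in stimulated sums, a log2 fold change of 9.15 ± 0.96 (SE, adjusted p = 5.4e-06). Nfkbia, the inhibitor IκBα, went from 158 to 560 CPM to 623 to 3732 CPM (2.49 ± 0.57, adjusted p = 0.031), and its adjusted p was 0.056 without the wells holding Mpo. Gadd45b, a stress regulator, rose by 5.91 ± 1.03 (adjusted p = 0.0027). The activation antigen Cd83 rose by 8.27 ± 1.32 (adjusted p = 0.0011) with 15 of 27 stimulated wells positive and 0 CPM in young mouse 2-1.

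The chemokine gene Cxcl10 had no count in unstimulated plasma wells and 1219 in stimulated ones, at least 294.6-fold higher relative to total counts, with 3 counts in all unstimulated wells taken as the floor. This bound and those below cover counting error only, since amplified reads are not independent molecules. Cxcl10 was seen in 7 of 27 wells, and 40.4% of its counts lay in the 2 wells with Mpo. The adhesion gene Icam1 was at 239 to 716 CPM in stimulated and 0 to 217 CPM in unstimulated sums, without overlap, and did not pass (2.30 ± 1.01, adjusted p = 0.67, and 0.031 with the animal block). The activator gene Junb (2.95 ± 0.85, adjusted p = 0.17, and 0.0063 with the block) and the feedback inhibitor Socs3 (4.15 ± 1.54, adjusted p = 0.48, and 0.00031 with the block) did not pass either. Of 8 immediate early genes tested 1 rose, the phosphatase Dusp1 (7.01 ± 1.67, adjusted p = 0.042). None of 16 interferon response genes tested passed, beside 0.784% of all genes, with a median of 1.29. With the block 1 passed, the factor Irf9 (adjusted p = 0.021). In kept wells 27 of 31 rose, beside 13.1% of all genes. In kept sums matched in wells and counts 2 of 26 rose, beside 0.604%.

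The largest fitted changes were of genes with no count in unstimulated plasma wells. Abtb2, an ankyrin and BTB domain protein, was detected in 21 of 27 stimulated wells, at 267 to 575 CPM in every stimulated sum, at least 469.6-fold higher (adjusted p = 9.6e-05). Ctla4, the inhibitory receptor of T cells, was detected in 14 of 27 stimulated wells, at 0 CPM in young mouse 2-1 and 78.1 to 608 CPM in the other 5 sums (at least 303-fold higher, adjusted p = 0.0074). It was found in 4 of 244 stimulated kept wells. The tubulin gene Tubb6 was at 8.39 to 360 CPM in stimulated sums (at least 221-fold higher, adjusted p = 0.0069).

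Among the 37 genes were 5 of cytosolic chaperones and their cofactors, picked out after the values were seen and not counted against a list. Hspa1a, the inducible HSP70, went from 0 CPM to between 0 and 6755 CPM (at least 1243-fold higher in summed counts, adjusted p = 0.0045), but was found in 8 of 27 stimulated wells and most of its counts lay in old mouse 2-2. Hsph1, an HSP110 exchange factor, went from 0 to 81.97 CPM to 776 to 1766 CPM (5.04 ± 0.82, adjusted p = 0.0012) and was found in all 27 stimulated and 10 of 26 unstimulated wells. Hsp90aa1 went from 58.1 to 109.2 CPM to 708 to 1164 CPM (3.47 ± 0.57, adjusted p = 0.0013). The co-chaperone gene Dnaja1 (4.90 ± 1.05), whose groups overlapped, and Hspa8, the constitutive HSC70 (2.26 ± 0.42), also rose, with adjusted p of 0.02 and 0.0051.

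Other genes past the threshold included the transcriptional coregulator Sbno2, which went from 0 to 103.2 CPM to 782 to 6043 CPM (5.88 ± 1.01, adjusted p = 0.0023). The autophagy receptor Sqstm1 rose by 3.39 ± 0.53 (adjusted p = 0.00089), the transcription factor Irf8 by 5.22 ± 1.03 (adjusted p = 0.0089), the chemokine-binding receptor Ccrl2 by 8.94 ± 1.22 (adjusted p = 0.00022) and the small GTPase Gem by 7.51 ± 1.18 (adjusted p = 0.00091). Of the 37 genes 33 were tested in kept wells, and 27 of these also rose there, 0 falling. Among all genes tested in kept wells 13.1% rose and 8.2% fell. The 2 sets of sums share their animals but no wells.

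No gene of the secretory lists passed the test, where 0.784% of all genes rose and 0% fell. This covers 0 of 32 ER chaperones, 20 degradation, 26 translocon, 21 N-glycosylation and 35 ER to Golgi genes tested. Beside that share the counts of 0 do not set the lists apart. The median log2 fold change was -0.89 for ER chaperones, -0.17 for degradation, -0.48 for translocon, -0.46 for N-glycosylation and -0.06 for ER to Golgi genes. The median of all genes was 0.08. Hsp90b1 (-1.44 ± 0.38) and Pdia4 (-1.75 ± 0.46) had adjusted p of 0.092, and Pdia4 fell with the animal block (adjusted p = 0.023). The 6 markers may have set the label and are given as values only. Igj was at 28441 to 165950 CPM in unstimulated and 16515 to 64848 CPM in stimulated sums, which overlapped, and the median log2 fold change of the markers was -0.82.

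The last comparison tests whether the response of plasma wells differed from that of kept wells, in 1 edgeR quasi-likelihood fit of both classes. Here too sums of the same animal entered as separate samples, except where the animal was a block. Of 12352 genes 152 (1.23%) had a higher and 61 (0.494%) a lower response in plasma wells. The counts were 6 and 6 with the animal as a block, 46 and 58 without the 2 wells with Mpo, and 6 and 1 against kept sums matched in wells and counts. The count of higher responses moved by over 1.5 times without old mouse 2 (70), 2-2 (27), 2-3 (about 1.0e+02) or 3 (482) and without young mouse 1 (75), 2-1 (52) or 3 (98). The count of lower responses did so without old mouse 2 (33) or young mouse 2-1 (36). The genes below are the 12 that passed in the first fit, with the block and without the 2 wells, a choice made after the values were seen. None of them passed against the matched kept sums, where adjusted p ran from 0.263 to 0.836 and Tnfrsf9 was not tested. Plasma and kept sums differ in depth, and the fit uses 1 estimate of their spread.

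In the first fit 6 of these responded more in plasma wells. Gem went from a median of 0 to 368 CPM in plasma sums and from 50.2 to 30.3 CPM in kept sums (difference of log2 fold changes 7.95 ± 1.03, SE, adjusted p = 5.6e-05). Hsp90aa1 started lower in plasma sums, at a median of 78.6 against 417 CPM, and ended near the kept level, at 857 against 786 CPM (2.60 ± 0.37, adjusted p = 0.000145). The others were the nuclear lamina gene Lmnb1 (6.67 ± 0.94), Lysmd3 (6.25 ± 1.06), Sbno2 (4.63 ± 0.91) and the kinase subunit gene Pik3cg (3.86 ± 0.60). Pik3cg went from a median of 148 to 654 CPM in plasma sums and from 249 to 95.5 CPM in kept sums.

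The other 6 had a lower log2 fold change in plasma than in kept sums in the first fit. Prdm1 went from a median of 0 to 29.9 CPM in kept sums but from 225 to 489 CPM in plasma sums (-8.82 ± 0.95, adjusted p = 3.1e-06). Fam46c (-8.23 ± 1.07), Cd74 (-3.54 ± 0.64) and Herpud1 (-2.30 ± 0.39) had the same form, with plasma medians above kept medians under both treatments. In unstimulated kept wells Prdm1 and Fam46c were each counted in 1 of 222 wells, at 5.89 and 1.65 CPM. Their log2 differences rest on that near-zero level. Whether the plasma label drew on any of these genes is not known. For Herpud1 the medians were 2506 and 4648 CPM in plasma sums and 82.2 and 864 CPM in kept sums. Tnfrsf9, the receptor 4-1BB, reached a median of 56.5 CPM in stimulated kept sums and 0 in stimulated plasma sums (-12.71 ± 1.61, adjusted p = 0.00011). Tnfsf10, the ligand TRAIL, went from a median of 40.04 to 206 CPM in kept sums and from 68.2 to 0.741 CPM in plasma sums (-6.30 ± 1.05, adjusted p = 0.0019).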

How the data were processed

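Single sorted cells of mouse bone marrow were profiled by SMART-seq2. The authors deposited expected counts and TPM per gene and well, made with RSEM on build mm9 per the submitters' processing notes, and the RSEM version is not given in the sources used here. The expected counts were whole numbers and were used as deposited. The authors' deposited TPM values served only for abundance per length, and 1408 TPM columns were not used. Wells were grouped by their labels. On plate 4 the titles number mice and plates otherwise than the mouse and plate labels, and the labels were used. The members and gene lists were chosen with earlier results of these data known.

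Wells of 1 animal and treatment were summed, so p-values rest on sums and not on wells. The permutation tests of shares used animals. The expression fits without the animal block took sums of the same animal as independent samples. Plasma-labelled and kept sums were compared as CPM of total counts with a pseudocount of 1, a minimum of 5 CPM and at least 2 plasma wells a sum. The response was tested with edgeR 4.0.16 (quasi-likelihood, TMM, filterByExpr, plate set as covariate, Benjamini-Hochberg adjustment) in R 4.3.3, with DESeq2 1.42.0 and limma 3.58.1 (voom) as alternatives, and shares with exact permutation tests in scipy 1.17.1. Plasma sums held 151811 to 3274026 counts and kept sums 6215510 to 26698006. Scripts were tested on simulated data. Intervals and limits of shares cover counting error only.

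Genes named are the 6 markers, 6 sort genes, the 10 largest called differences each way at 50 CPM or more, up to 4 leading members of each list, the 5 largest response changes each way at a mean log2 CPM of 4 or more, and a fixed set of response genes. Other genes were named after their values were seen, as were the alternatives without 2 wells and with kept sums matched in wells and counts. Same-animal sums pair by label. Over 1915 genes their deviations correlated by 0.0512, 0.0981, 0.0398 and 0.0223 in the 4 animals with both treatments. Promoters are from RefSeq, build GRCm38.p6, and no coordinate was taken from mm9. No doublet caller was run, and immunoglobulin chain genes were not analysed here.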

Additional observations from a re-analysis of the deposited data

Results flagged for a closer look

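Of 93 groups of 4 to 10 sums examined, 21 held a sum far from the others. The nominal rate of about 1 in 20 by chance was not measured for such sums, so no excess over chance is read from that count. In stimulated plasma sums young mouse 2-1, a single well, stood at 0 on the log2(CPM + 1) scale for Ctla4, Cxcl10, Cd83 and Dusp1. In unstimulated plasma sums old mouse 3, with 22 of the 26 wells, was the only one with counts, at 2.593 for Cd83, 1.955 for Nfkbiz and 2.593 for Dusp1.

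In the plasma minus kept differences stimulated old mouse 2 stood apart for Igj (10.03), Pou2af1 (5.469), Sel1l (1.44) and Eltd1 (-2.237). Unstimulated old mouse 2-2, with 2 wells, stood apart for Kit (-9.86), Meis1 (-7.859), Rps9 (-3.673) and Sec24d (0.8654). Unstimulated old mouse 3 did so for Slamf1 (-1.713), stimulated old mouse 2-3 for Ly6d (2.853) and Bhlha15 (0.9218), stimulated old mouse 3 for Gpr56 (-4.507) and Eng (-4.255), and stimulated old mouse 2-2 for Kif11 (-0.9042).

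The differences of response between plasma and kept wells given here come from the interaction term of edgeR's quasi-likelihood test, in the first fit. The largest positive differences of log2 fold changes were of Mpo (16.54), Prtn3 (14.69), Ifi205 (14.56), Plk1 (12.76) and Ube2c (12.71). Without the 2 wells holding Mpo the values were 0.50 for Mpo and 1.57 for Prtn3. The largest negative differences were of Tnfrsf9 (-12.71), Zfp952 (-12.00), Mfge8 (-11.06), Narf (-10.63) and Fchsd2 (-10.62). With the animal as a block Tnfrsf9 had an adjusted p of 0.0133, and the other 9 genes had adjusted p of 0.109 or more.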

How the results depend on the processing

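The higher share of plasma wells in old mice kept its sign in every alternative, at 12.9 points within plates 1 and 2, 12.1 within plate 4, 10.2 in unstimulated wells and 9.52 to 16.5 with 1 animal left out, where the first 3, and those without young mouse 1, 2, 3 or 2-3, did not pass p = 0.05. The change of share with stimulation was -6.45 points within plates 1 and 2 and ran from -1.08 to 7.80 with 1 animal left out. In the response of plasma wells 37 genes rose and 0 fell. DESeq2 gave 181 and 5, at least 2 wells a sum 20 higher, size factors 1 lower, no filter 5 lower, leaving out low-quality wells 1 lower, voom 22 lower, and leaving out 1 animal 12 to 36 higher and 0 to 3 lower. With the replicate block (animal) 67 rose and 2 fell.

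For the difference of responses, at 152 and 61 genes, the replicate block gave 6 and 6, DESeq2 750 and 300, low-quality wells left out 1063 and 110, matched sums only 8 and 7, kept sums matched in wells and counts 6 and 1, voom 97 higher, the 2 wells with Mpo left out 46 higher, at least 2 wells a sum 96 lower, and leaving out 1 animal 27 to 482 and 33 to 88. Plasma against kept wells, at 323 and 2556 genes, gave about 1.3e+02 higher with at least 1 well a sum, 726 with at least 5, 985 lower without cycling kept wells, 917 lower in matched kept sums, and 358 to 551 and 2946 to 3505 with 1 animal left out. Signs reversed for Mki67 (0.36 without cycling kept wells) and, in the difference of responses, for Cd83 (1.496 without low-quality wells, and -7.90 to 1.18 with 1 animal left out), Ifit1 (-7.84 to 2.62) and Mfge8 (-11.96 to 0.56). The cause was not tested. Of values for named genes, 601 of the difference kept direction and side of the threshold and 247 lost the call, while 499 of the response kept both, 5 gained a call and all others lost it. Depth limits genes of low count in the sums of 1 or 2 wells.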
